A study of Homo sapiens with 8 samples.

Results

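The TNF receptor superfamily is a family of cell surface receptors with cysteine-rich extracellular repeats that bind ligands of the TNF family. Receptors with an intracellular death domain recruit the adaptors TRADD or FADD and can start apoptosis or NF-κB signalling, whereas receptors without it bind TRAF proteins and signal mainly through NF-κB and JNK. Decoy members bind ligand without transmitting a full death signal. In breast cancer cells the family is best known for the TRAIL receptors TNFRSF10A and TNFRSF10B and for TNFRSF1A, the main receptor for TNF.

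The mRNA levels of 9 receptor genes of this superfamily, of 58051 genes in the count files, were followed in sublines of the breast cancer line MDA231 (MDAMB231). The genes were TNFRSF21 (death receptor 6), TNFRSF1A, TNFRSF10A, TNFRSF10B, TNFRSF10D, TNFRSF12A, TNFRSF11B, FAS and LTBR. The list was chosen by the values of TNFRSF21 in the same samples: its level was higher in cells without SDHB and back at the parental level when SDHA was also depleted. The values of TNFRSF21 are therefore given as a description and without a test. Tests were made for the other members, although the list as a whole was drawn up with earlier results of these data known.

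The series holds 8 samples that the labels call biological replicates: 2 of parental, unmodified cells, 3 of SDHBKO cells and 3 of SDHBKOSDHAlow cells. SDHB and SDHA are the iron-sulfur and flavoprotein subunits of respiratory complex II (succinate dehydrogenase). SDHBKO cells were made from parental cells with a TALEN nuclease construct and selected with hygromycin. SDHBKOSDHAlow cells were made from SDHBKO cells with an shRNA plasmid against SDHA and selected with puromycin, so that both modified groups carry the SDHB knockout. The sources do not say whether the replicates of a group were separate clones or cultures, and p-values measure only the spread between these samples. The label of the SDHBKO samples names no empty vector, so that SDHA depletion and puromycin selection cannot be told apart in these groups. Likewise, the parental cells were unmodified, so that loss of SDHB cannot be told apart from the TALEN treatment and hygromycin selection. The 3 comparisons share samples, because each group enters 2 of them.

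RNA was read from the 3′ ends of polyadenylated transcripts, with 773042 to 1427141 reads counted on genes per sample. A count of 3 corresponds to 2.238 to 4.105 CPM (counts for each 1000000 reads on genes, which for all levels below were scaled by the TMM method). SDHBKOSDHAlow replicate 2 had the most reads and stood apart from its group: the chi-squared statistic of its counts per degree of freedom was 8.95 and 9.57 against the other replicates, which differed from each other by 2.99. The statistic was 4.26 to 5.03 among SDHBKO replicates and 2.09 between the parental ones. It grows with the number of reads, so that part of the distance of replicate 2 may come from its depth. Calls of members and pathway genes that rest on SDHBKOSDHAlow replicate 2 are given with and without it. SDHA was at 74.0 and 91.6 CPM in parental, 148, 135 and 151 CPM in SDHBKO and 8.45, 12.7 and 17.8 CPM in SDHBKOSDHAlow cells, with a log2 fold change of -3.46 ± 0.28 (SE) between the modified groups (adjusted p = 1.16e-07, edgeR quasi-likelihood test with Benjamini-Hochberg adjustment). SDHA shares sequence with pseudogenes, so that its level is uncertain. SDHB had 4 counts at most in any sample, parental included, and 3′ tags do not test for an edit near the start of the gene. Of 10 genes listed as markers of mesenchymal-like breast cancer lines, 9 passed the filter on low counts, among them AXL, VIM and LGALS1 but also KRT8 and KRT18, which are keratins of simple epithelia, whereas ANXA1 had 0 to 5 counts. Of 6 luminal markers, ESR1 and PGR were at 0 in all samples and FOXA1 and TFF1 had at most 2 counts. XBP1 had 108 to 302 counts and GATA3 had 8 to 20 counts, and both passed the filter. Of 9 leukocyte markers 8 were at 0 in all samples and CD68 had at most 6 counts, and of 5 endothelial markers 4 were at 0 and PECAM1 had at most 2 counts.

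TNFRSF21 encodes a receptor with a death domain, studied mostly in neurons and lymphocytes, and lies on chromosome 6 at 47231532 to 47309905 (GRCh38, minus strand). It had 53 and 55 counts in parental, 126, 172 and 181 in SDHBKO and 51, 117 and 47 in SDHBKOSDHAlow cells. As CPM these were 61.3 and 73.0 CPM in parental, 172, 191 and 195 CPM in SDHBKO and 61.5, 87.3 and 52.4 CPM in SDHBKOSDHAlow cells. Every SDHBKO sample was above every sample of the other groups, and the parental samples lay within the range of SDHBKOSDHAlow. The means were 67.2 ± 8.27 CPM (SD, n = 2), 186 ± 12.2 CPM (n = 3) and 67.1 ± 18.1 CPM (n = 3). The fitted log2 fold change was 1.47 for SDHBKO against parental, -1.46 for SDHBKOSDHAlow against SDHBKO and 0.02 for SDHBKOSDHAlow against parental cells, whose means differed by less than either SD. When each sample was left out in turn, the first fold change stayed between 1.34 and 1.60 and the second between -1.73 and -1.31, with -1.73 reached without SDHBKOSDHAlow replicate 2. Since the gene was chosen by its values in these samples, the ranges are a description only. Since the samples are bulk RNA, more RNA per cell cannot be told apart from more cells with the transcript.

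**Figure D1:**
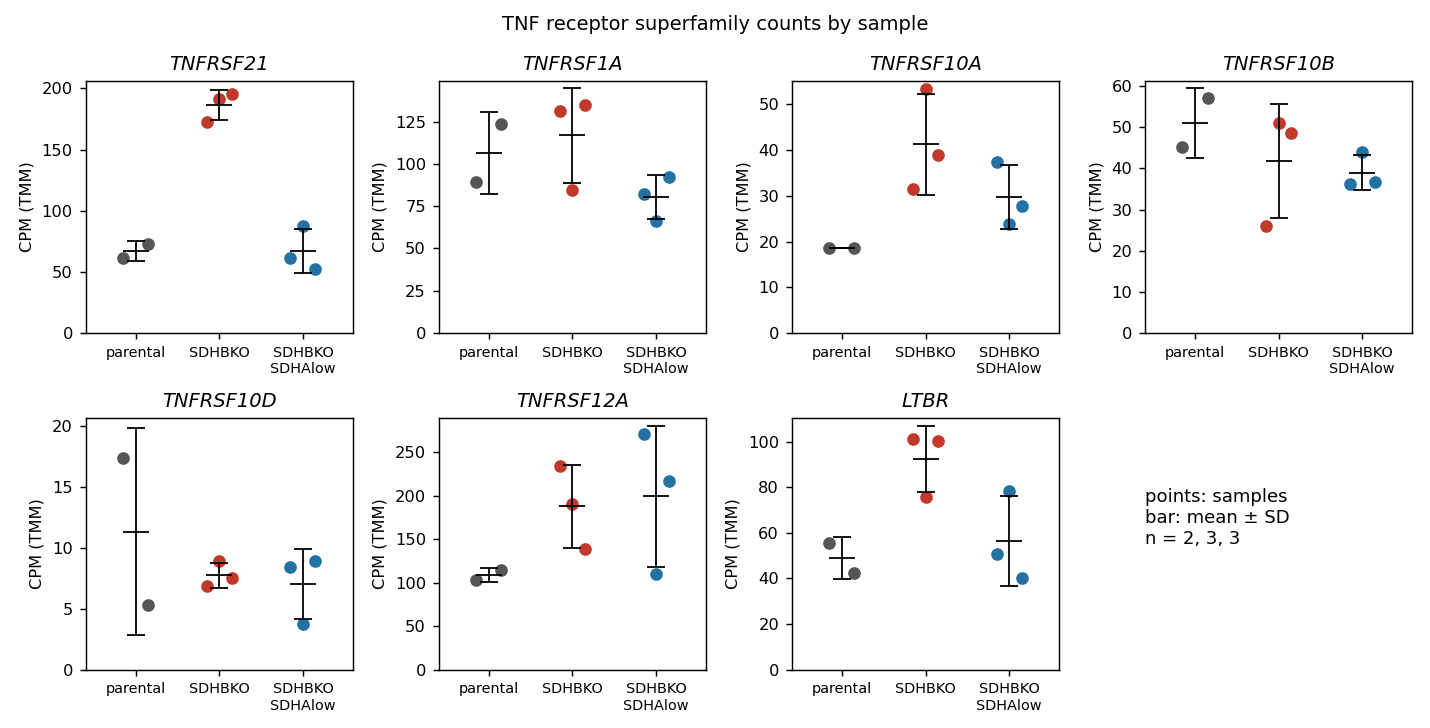
Level of the 7 receptor genes that passed the filter on low counts, in CPM (y axis from 0, a scale of its own for each gene), by group (x axis), with each point a sample and the bars showing mean ± SD for 2 parental, 3 SDHBKO and 3 SDHBKOSDHAlow samples. TNFRSF21 separated SDHBKO (172 to 195 CPM) from both other groups, LTBR and TNFRSF10A lay higher in SDHBKO than in parental cells, and TNFRSF10B and TNFRSF1A overlapped between them.

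LTBR was picked as the member whose level followed that of TNFRSF21 most closely, and whether the genes share regulation was not tested. The sequences around the start sites of these genes are shown as a description. Each runs from 250 bases before to 50 bases after the start in RefSeq (GRCh38.p14), 5′ to 3′ on the strand of the gene, and capitals mark GC boxes (GGGCGG, or CCGCCC where the box is on the opposite strand). The TNFRSF21 promoter lies at chr6:47309856-47310155 on the minus strand and the LTBR promoter at chr12:6383912-6384211 on the plus strand. In GENCODE, the source of the gene positions, LTBR starts further upstream, at 6375045, so that this window lies inside the gene as given below.
TNFRSF21: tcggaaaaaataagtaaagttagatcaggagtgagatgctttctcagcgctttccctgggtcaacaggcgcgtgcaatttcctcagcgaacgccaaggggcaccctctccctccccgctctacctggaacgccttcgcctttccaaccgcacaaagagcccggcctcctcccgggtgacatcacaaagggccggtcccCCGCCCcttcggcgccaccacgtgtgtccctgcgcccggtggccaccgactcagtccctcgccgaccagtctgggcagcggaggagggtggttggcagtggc
LTBR: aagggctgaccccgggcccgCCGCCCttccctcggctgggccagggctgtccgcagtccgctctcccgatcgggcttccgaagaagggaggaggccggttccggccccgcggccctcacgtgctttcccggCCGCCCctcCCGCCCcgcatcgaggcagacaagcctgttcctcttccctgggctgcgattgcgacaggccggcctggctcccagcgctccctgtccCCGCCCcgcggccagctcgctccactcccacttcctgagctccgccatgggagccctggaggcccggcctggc
The TNFRSF21 promoter had a GC content of 63.3%, 23 CpG dinucleotides and 1 GC box. The LTBR promoter had a GC content of 74.3%, 29 CpG dinucleotides and 4 GC boxes. A GC box was present in 45.0% of 35116 RefSeq promoters of the same length, so that its presence is common. An AP-1 site (TGACTCA, in 4.95% of promoters), a cAMP response element (TGACGTCA, in 1.85%) and an NF-κB site (GGGNNNTTCC, in 6.52%), each searched on both strands, were not found in either window. The promoter of TNFRSF1A held none of these motifs and no GC box. The windows at start sites of FAS, which had 1 count over all samples, held none of these motifs and 1, 2 and 1 GC boxes. FAS also starts further upstream in GENCODE, at 88953813, so that these windows lie inside the gene as given below. Windows of the other members are not given here.

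LTBR is the lymphotoxin β receptor, which has no death domain and drives the non-canonical NF-κB pathway through TRAF proteins. It lies on chromosome 12 at 6375045 to 6391571 (plus strand). It had 55.5 and 42.5 CPM in parental, 101, 75.6 and 100 CPM in SDHBKO and 50.7, 78.3 and 40.1 CPM in SDHBKOSDHAlow cells. Every SDHBKO sample was above both parental samples, and SDHBKOSDHAlow replicate 2 alone reached into the SDHBKO range. The means were 49.0 ± 9.23 CPM (SD, n = 2), 92.4 ± 14.6 CPM (n = 3) and 56.4 ± 19.7 CPM (n = 3). LTBR had a log2 fold change of 0.91 ± 0.31 (SE) in SDHBKO against parental cells (adjusted p = 0.122) and of -0.69 ± 0.27 in SDHBKOSDHAlow against SDHBKO cells (adjusted p = 0.283), so that neither passed the threshold of 0.1 in the edgeR test. SDHBKOSDHAlow and parental cells differed by 0.22 ± 0.31 (adjusted p = 0.825), with a 95% interval of -0.43 to 0.87. Without SDHBKOSDHAlow replicate 2, LTBR passed in both of the first comparisons, with 0.92 (adjusted p = 0.0381) and -1.04 (adjusted p = 0.0321), and its log2 difference between SDHBKOSDHAlow and parental cells turned to -0.12. Over the alternative settings the adjusted p ran from 0.0381 to 0.483 in the first comparison and from 0.0321 to 0.587 in the second.

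The TNFRSF1A gene, which encodes the death domain receptor for TNF found on most cells, lies at 6328757 to 6342114 on chromosome 12 (minus strand). By the GENCODE positions this is 32931 bases from LTBR. TNFRSF1A had 89.1 and 123 CPM in parental, 131, 84.5 and 135 CPM in SDHBKO and 82.1, 66.4 and 92.5 CPM in SDHBKOSDHAlow cells. The groups overlapped in every comparison, and SDHBKO replicate 2 lay below both parental samples. TNFRSF1A had a log2 fold change of 0.14 ± 0.27 in SDHBKO against parental cells, with a 95% interval of -0.42 to 0.70 (adjusted p = 0.847, edgeR). In SDHBKOSDHAlow against SDHBKO cells it was -0.55 ± 0.24 (adjusted p = 0.375), and against parental cells -0.41 ± 0.27 (adjusted p = 0.576). The log2 fold changes of these neighbouring genes in SDHBKO against parental cells were thus 0.91 for LTBR and 0.14 for TNFRSF1A, and the difference between the genes was not tested.

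TNFRSF10A and TNFRSF10B encode the TRAIL receptors DR4 and DR5, which recruit FADD and caspase-8. They lie on chromosome 8 at 23190452 to 23225102 and at 23020133 to 23069031, both on the minus strand, with the decoy TNFRSF10D between them. TNFRSF10A had 16 and 14 counts in parental, 23, 48 and 36 in SDHBKO and 31, 32 and 25 in SDHBKOSDHAlow cells, or 18.5 and 18.6 CPM, 31.5, 53.4 and 38.8 CPM and 37.4, 23.9 and 27.9 CPM. Every sample of both modified groups was above both parental samples. The means were 18.5 ± 0.0524 CPM (SD, n = 2), 41.2 ± 11.1 CPM (n = 3) and 29.7 ± 6.96 CPM (n = 3). The log2 fold change was 1.15 ± 0.39 in SDHBKO against parental cells (95% interval 0.34 to 1.97, adjusted p = 0.114, edgeR). In SDHBKOSDHAlow cells it was -0.50 ± 0.32 against SDHBKO cells (adjusted p = 0.562) and 0.66 ± 0.40 against parental cells (adjusted p = 0.525). No comparison of TNFRSF10A passed the threshold. In SDHBKO against parental cells it passed in a fit without SDHBKOSDHAlow replicate 2 (adjusted p = 0.0607), and its adjusted p ran from 0.0607 to 0.545 over the alternative settings.

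TNFRSF10B had 39 and 43 counts in parental, 19, 46 and 45 in SDHBKO and 30, 59 and 33 in SDHBKOSDHAlow cells, or 45.1 and 57.1 CPM, 26.0, 51.1 and 48.6 CPM and 36.2, 44.02 and 36.8 CPM. It was not higher in SDHBKO cells: 2 of 3 samples lay within the parental range and replicate 1 below it. The log2 fold change was -0.27 ± 0.33 against parental cells, with a 95% interval of -0.95 to 0.42 (adjusted p = 0.733, edgeR). SDHBKOSDHAlow cells differed by -0.11 ± 0.30 from SDHBKO cells (adjusted p = 0.914) and by -0.38 ± 0.33 from parental cells (adjusted p = 0.683), and in the latter comparison each sample was below both parental samples. The ratio of TNFRSF10A to TNFRSF10B counts, chosen after the values were seen and so given without a test, was 0.41 and 0.326 in parental, 1.211, 1.043 and 0.8 in SDHBKO and 1.033, 0.542 and 0.758 in SDHBKOSDHAlow cells. Both parental ratios were below all others. The TNFRSF10 genes are paralogs. RHOBTB2, with 309 counts over all samples beside 314 of TNFRSF10B, overlaps TNFRSF10B on the opposite strand, and TNFRSF10A-DT, with 82 counts beside 225 of TNFRSF10A, overlaps TNFRSF10A there. Whether the counting used strand is not given in the sources used here. Reads in the overlaps may thus be missing, or counted for the wrong gene, and cannot be told apart. The position of the overlaps relative to the 3′ ends of these genes was not examined.

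TNFRSF10D encodes a TRAIL decoy receptor with a truncated death domain (chromosome 8, 23135588 to 23164027, minus strand). It had 15 and 4 counts in parental, 5, 8 and 7 in SDHBKO and 7, 5 and 8 in SDHBKOSDHAlow cells. As CPM these were 17.4 and 5.31 in parental, 6.84, 8.89 and 7.55 in SDHBKO and 8.45, 3.73 and 8.91 in SDHBKOSDHAlow cells. All samples lay between the parental ones but SDHBKOSDHAlow replicate 2, which was below both. The log2 fold changes of -0.56 ± 0.64, -0.20 ± 0.60 and -0.76 ± 0.64, in the order SDHBKO against parental, SDHBKOSDHAlow against SDHBKO and SDHBKOSDHAlow against parental, had adjusted p of 0.700, 0.922 and 0.672 (edgeR). Parental replicate 1 set the direction of the first and the last, which became 0.54 and 0.34 without it. The 95% intervals, of -1.88 to 0.76, -1.44 to 1.04 and -2.08 to 0.56, were the widest of the 6 members tested.

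TNFRSF12A encodes the TWEAK receptor (Fn14), a small receptor without a death domain that binds TRAF proteins. It lies on chromosome 16 at 3018445 to 3022383 (plus strand). It had 103 and 114 CPM in parental, 234, 190 and 138 CPM in SDHBKO and 270, 110 and 216 CPM in SDHBKOSDHAlow cells. All SDHBKO samples were above the parental ones, whereas SDHBKOSDHAlow replicate 2 lay between the parental samples and its 2 companions were far above them. The means were 109 ± 7.92 CPM (SD, n = 2), 187 ± 48.0 CPM (n = 3) and 199 ± 81.3 CPM (n = 3). The log2 fold change was 0.78 ± 0.31 in SDHBKO (adjusted p = 0.184, edgeR) and 0.86 ± 0.31 in SDHBKOSDHAlow cells (adjusted p = 0.244), both against parental cells. The modified groups differed by 0.08 ± 0.27, with a 95% interval of -0.47 to 0.63 (adjusted p = 0.933). Without SDHBKOSDHAlow replicate 2, both comparisons with parental cells passed, with 0.80 (adjusted p = 0.0297) and 1.16 (adjusted p = 0.0154). The adjusted p of the first ran up to 0.666 and that of the second up to 0.873 over the alternative settings.

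FAS, the receptor for FAS ligand (chromosome 10, 88953813 to 89029605, plus strand), had 1 count in SDHBKOSDHAlow replicate 1 and 0 in the other 7 samples. TNFRSF11B, the secreted decoy receptor osteoprotegerin (chromosome 8, 118923557 to 118951885, minus strand), was at 0 in all 8. Neither was tested, and a count of 0 allows up to 2.238 to 4.105 CPM per sample, for counting error only. FAS is overlapped by STAMBPL1 on the same strand (83 counts over all samples) and by ACTA2 on the opposite strand (108 counts). Reads on no single gene were left out, so that reads of FAS in the overlaps may be missing. Whether the overlaps reach the 3′ end of FAS, where 3′ tags come from, was not examined. The last 300 bases of the canonical transcript, the part that 3′ tags come from if transcripts end there, had a GC content of 20.7% in TNFRSF11B and 32.3% in FAS and of 34.0% to 54.7% in the other 7 members. Among all protein-coding genes, 24.15% passed the filter where this content was 18.3% to 31.3%, the range that holds TNFRSF11B, 35.4% where it was 31.7% to 37.0%, the range that holds FAS, and 42.7% where it was 53.0% to 81.3%. The part of base composition in the low counts of FAS and TNFRSF11B, and of the overlapping genes in those of FAS, was not tested.

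**Figure D2:**
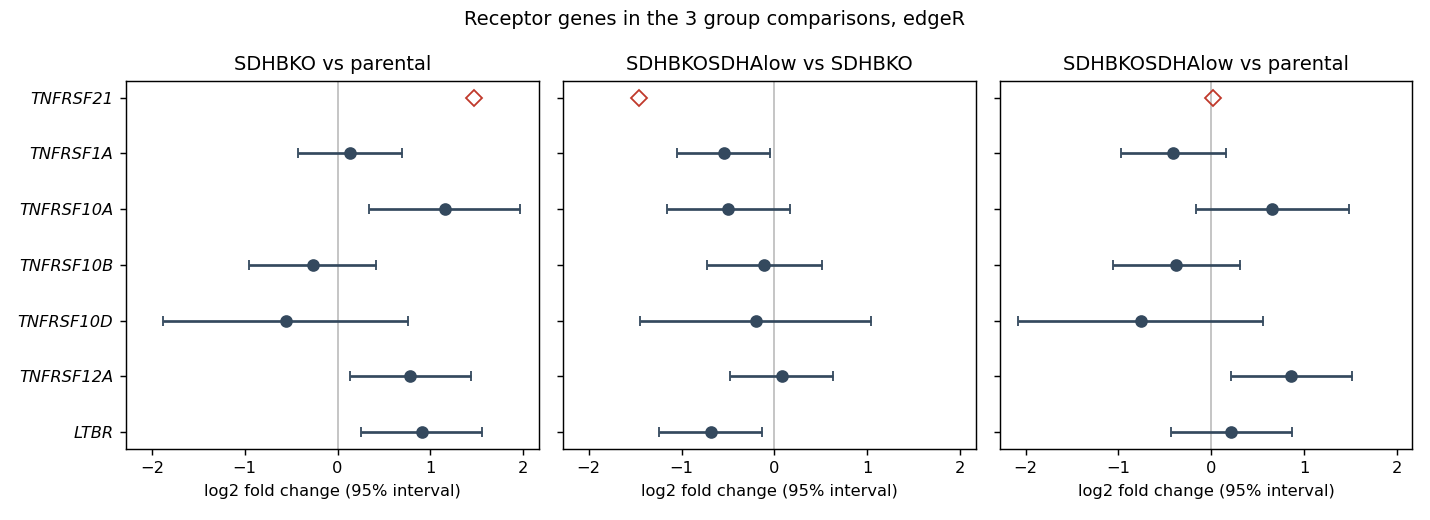
Log2 fold changes (x axis) of 7 receptor genes (y axis) in SDHBKO against parental, SDHBKOSDHAlow against SDHBKO and SDHBKOSDHAlow against parental cells, each filled point the edgeR estimate with its 95% interval and each open diamond the value of TNFRSF21 alone. TNFRSF21, which selected the list, stood at 1.47, -1.46 and 0.02. The intervals, not adjusted for the number of genes, lay above 0 for TNFRSF10A, TNFRSF12A and LTBR in the first comparison. They lay below 0 for TNFRSF1A and LTBR in the second and above 0 for TNFRSF12A in the third. None of these passed an adjusted p of 0.1 by edgeR.

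Across the members, 7 of 9 passed the filter on low counts (mean normalized count above 5), and the 6 of these other than TNFRSF21 were tested. Of the 6, 0 passed an adjusted p of 0.1 in any comparison by edgeR. DESeq2 called 0 as well, but gave an adjusted p for only 3 of them in SDHBKO against parental cells and for 5 in each of the other comparisons. Over all 7550 genes in the fit, 5.54% passed in SDHBKO against parental, 1.51% in SDHBKOSDHAlow against SDHBKO and 0.914% in SDHBKOSDHAlow against parental cells. At an unadjusted p below 0.05 there were 3 (TNFRSF10A, TNFRSF12A and LTBR), 2 (TNFRSF1A and LTBR) and 1 (TNFRSF12A) of the 6, beside 17.5%, 12.1% and 12.3% of all genes. The median log2 fold change of the 6 was 0.46, -0.35 and -0.08, whereas the median over all genes was -0.0007, 0.01 and 0.02. In simulated counts for SDHBKO against parental cells, 68 of 100 genes changed by 1 on the log2 scale were recovered and 100 of 100 changed by 2, for genes with a mean count above 50. The simulation gave all genes the same coefficient of variation, 21.5%, and held no sample that stood apart. TNFRSF10A, TNFRSF10B and TNFRSF10D, with mean normalized counts of 27.35, 37.74 and 7.33, lay below its range, so that these shares do not apply to them.

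Every SDHBKO sample was higher than every parental sample for 4 of the 7 members above the filter, TNFRSF21, TNFRSF10A, TNFRSF12A and LTBR, which is 3 of the 6 without TNFRSF21. This held for 19.3% of all tested genes. Every SDHBKOSDHAlow sample was lower than every SDHBKO sample for TNFRSF21 only, and for 8.69% of all genes. Between SDHBKOSDHAlow and parental cells, TNFRSF10A was higher in every sample (15.2% of all genes) and TNFRSF10B lower in every sample (15.5% of all genes). The summed level of the 8 members other than TNFRSF21 was 329 to 361 CPM in parental, 464 to 531 CPM in SDHBKO and 327 to 486 CPM in SDHBKOSDHAlow samples. The members did not move together in this sum. From parental to SDHBKO cells the mean CPM rose from 109 to 187 for TNFRSF12A and from 49.0 to 92.4 for LTBR. It went from 18.5 to 41.2 for TNFRSF10A and from 106 to 117 for TNFRSF1A. For TNFRSF10B it fell from 51.1 to 41.9, and for TNFRSF10D from 11.3 to 7.76.

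**Figure D3:**
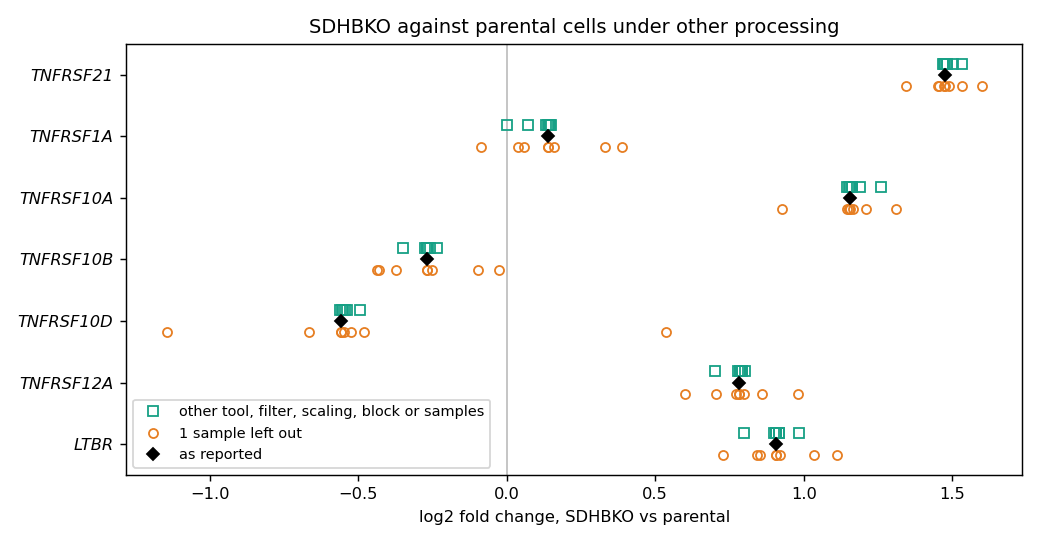
Log2 fold change of SDHBKO against parental cells (x axis) for 7 receptor genes (y axis) as reported (diamonds), with another tool, filter, scaling, block or set of samples (squares), and with each sample left out in turn (circles). TNFRSF10A, TNFRSF12A and LTBR stayed above 0 in all of them, TNFRSF10B stayed below 0, and TNFRSF1A and TNFRSF10D crossed 0. TNFRSF21, which stayed above 0 as well, selected the list by its values in these samples and is shown as a description.

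The other receptors of the superfamily were mostly not detected, where a count of 0 again allows up to 2.238 to 4.105 CPM per sample. Of 20 genes, 11 were at 0 in all samples, 15 had at most 3 counts in every sample (these 11 included), and only CD40 and RELT were tested. CD40, a TRAF-binding receptor of antigen-presenting cells, had 12 to 28 counts and RELT, a receptor without a death domain, 25 to 58 counts. Neither passed in any comparison by edgeR, also at an unadjusted p below 0.05, or by DESeq2, which gave no adjusted p for CD40. TNFRSF1B, the second TNF receptor, was at 0 in all samples. TNFRSF11A, the receptor RANK, had 1 to 7 counts in 7 samples and 17 in SDHBKOSDHAlow replicate 2.

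Few ligands of these receptors were seen, with the same limit for a count of 0. Of 19 ligand genes, 13 were at 0 in all samples, among them TNF, FASLG, LTB and TNFSF10, which encode the ligands of TNFRSF1A, FAS, LTBR and the TRAIL receptors. APP, the amyloid precursor protein, described as a ligand of TNFRSF21, had 97.2 and 63.7 CPM in parental, 39.7, 41.1 and 42.1 CPM in SDHBKO and 35.0, 41.0 and 52.4 CPM in SDHBKOSDHAlow cells. Every sample of both modified groups was below both parental samples. Over all 7550 genes tested, this held for 1403 in SDHBKO and for 1173 in SDHBKOSDHAlow cells. APP fell in SDHBKO against parental cells by 0.98 on the log2 scale (SE 0.30, adjusted p = 0.0836, edgeR), and passed in 7 of 15 alternative settings. It was the only 1 of 3 ligands tested that passed, beside 5.54% of all genes in this comparison. In SDHBKOSDHAlow against SDHBKO cells its log2 fold change was 0.06 ± 0.28 (adjusted p = 0.952). TNFSF12, the ligand of TNFRSF12A, had 11 to 22 counts and did not pass in any comparison, and neither did TNFSF9, a ligand known from T cell costimulation, with 8 to 62 counts.

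Among 21 adaptor and ubiquitin ligase genes, 14 were tested and RBCK1 alone passed, in SDHBKOSDHAlow against SDHBKO cells, where 1.51% of all genes passed. RBCK1 encodes HOIL-1, a subunit of the linear ubiquitin ligase that acts at TNF receptor complexes. It had 229 and 296 CPM in parental, 416, 329 and 466 CPM in SDHBKO and 156, 191 and 160 CPM in SDHBKOSDHAlow cells. The 3 groups did not overlap, with SDHBKO highest and SDHBKOSDHAlow lowest. Taken 1 at a time, SDHBKO above parental held for 19.3% of all genes, SDHBKOSDHAlow below SDHBKO for 8.69% and SDHBKOSDHAlow below parental for 15.5%. RBCK1 fell in SDHBKOSDHAlow against SDHBKO cells by 1.25 on the log2 scale (SE 0.20, adjusted p = 0.0035, edgeR), and passed in 15 of 15 alternative settings. In SDHBKO against parental cells it had 0.62 ± 0.23 (adjusted p = 0.141), which passed with DESeq2 and without SDHBKOSDHAlow replicate 2 (adjusted p = 0.0445). FADD, the adaptor of death receptors, and TNIP1, a partner of the NF-κB inhibitor A20, had log2 fold changes between -0.15 and 0.17 in all 3 comparisons. The median over the 14 genes was -0.13, 0.03 and -0.08, with 5, 7 and 7 of them higher, beside 49.9%, 51.1% and 51.4% of all genes.

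Of 20 kinases and NF-κB factors, 15 were tested and NFKB1 alone passed, in SDHBKO against parental cells, where 5.54% of all genes passed. NFKB1, the p105 precursor of the NF-κB subunit p50, had 54.4 and 67.7 CPM in parental, 9.58, 34.5 and 30.2 CPM in SDHBKO and 53.1, 35.8 and 64.6 CPM in SDHBKOSDHAlow cells. SDHBKO samples were below every sample of the other groups. Of all 7550 genes, 1403 had every SDHBKO sample below both parental samples, and 657 had every SDHBKOSDHAlow sample above every SDHBKO sample. NFKB1 fell in SDHBKO against parental cells by 1.26 on the log2 scale (SE 0.39, adjusted p = 0.0884, edgeR) and passed in 11 of 15 alternative settings. In SDHBKOSDHAlow against SDHBKO cells it had 1.00 ± 0.36 (adjusted p = 0.251), and 1.20 (adjusted p = 0.0542) without SDHBKOSDHAlow replicate 2. RELA, the NF-κB subunit p65, had -0.59 ± 0.22 in SDHBKO against parental cells (adjusted p = 0.146), which passed with DESeq2 and without SDHBKOSDHAlow replicate 2 (adjusted p = 0.0577). RELB, a subunit of the non-canonical pathway named for its values, had 0.94 ± 0.28 in SDHBKOSDHAlow against SDHBKO cells (adjusted p = 0.136), and 1.10 (adjusted p = 0.0261) without SDHBKOSDHAlow replicate 2. In SDHBKO against parental cells NFKBIA, the NF-κB inhibitor IκBα, had 0.42 ± 0.23 (adjusted p = 0.36) and JUN had 0.20 ± 0.23 (adjusted p = 0.709). The median over the 15 was -0.44, 0.09 and -0.12 in the 3 comparisons, and 5, 9 and 7 of them were higher, beside 49.9%, 51.1% and 51.4% of all genes.

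In the death branch, 7 of 13 genes were tested, and BAX alone passed, in SDHBKO against parental cells, where 5.54% of all genes passed. BAX, which permeabilizes the mitochondrial outer membrane in apoptosis, had 8 and 4 counts in parental, 38, 16 and 22 in SDHBKO and 17, 52 and 7 in SDHBKOSDHAlow cells. SDHBKO samples were above the parental ones (19.3% of all genes), whereas SDHBKOSDHAlow samples spread from the parental level to above 2 of 3 SDHBKO samples. The log2 fold change of SDHBKO against parental cells was 2.03 ± 0.65 (adjusted p = 0.0964, edgeR), and it passed in 9 of 14 alternative settings, while DESeq2 gave no adjusted p. CFLAR, the inhibitor c-FLIP of caspase-8, had 0.53 ± 0.33 (adjusted p = 0.425) and BAK1, a relative of BAX, had 0.42 ± 0.28 (adjusted p = 0.466). The median over the 7 genes was 0.42, 0.03 and 0.59, with 5, 4 and 6 of them higher, beside 49.9%, 51.1% and 51.4% of all genes.

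Among 8 genes for the shedding and processing of receptors, 6 were tested. RHBDF2 alone passed, in SDHBKO against parental cells, where 5.54% of all genes passed. RHBDF2 encodes iRhom2, which brings the sheddase ADAM17 to the cell surface. It had 60.2 and 91.6 CPM in parental, 42.4, 31.1 and 35.6 CPM in SDHBKO and 78.4, 61.2 and 69.1 CPM in SDHBKOSDHAlow cells, with SDHBKO below every sample of the other groups. How many of all genes were separated in this way is given with NFKB1. RHBDF2 fell in SDHBKO against parental cells by 1.06 on the log2 scale (SE 0.30, adjusted p = 0.0596, edgeR), and passed in 9 of 15 alternative settings. In SDHBKOSDHAlow against SDHBKO cells it had 0.93 ± 0.27 (adjusted p = 0.118), and 1.00 (adjusted p = 0.0496) without SDHBKOSDHAlow replicate 2. MMP14, a membrane-bound metalloproteinase, had 0.68 ± 0.28 (adjusted p = 0.205), SPPL2B -0.41 ± 0.30 (adjusted p = 0.517) and RHBDF1 -0.10 ± 0.29 (adjusted p = 0.907) in SDHBKO against parental cells. The median over the 6 was -0.37, -0.17 and -0.45, with 1 of them higher in each comparison, beside 49.9%, 51.1% and 51.4% of all genes.

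Of 17 matched TNF response genes, 6 were at 0 in all samples and 11 had at most 3 counts in every sample, the cytokines CXCL8, CXCL1, CXCL2, CCL20, CSF2 and IL6 being those at 0. These counts of 0 have the limit given for FAS and TNFRSF11B, and do not show that the transcripts were absent. IER3, an early response gene that modulates NF-κB signalling and apoptosis, was the only 1 of 5 tested that passed. It did so in SDHBKO against parental cells, where 5.54% of all genes passed. It had 1077 and 1119 CPM in parental, 3507, 2302 and 2658 CPM in SDHBKO and 1688, 2346 and 1226 CPM in SDHBKOSDHAlow cells. Both modified groups were above the parental samples, and SDHBKOSDHAlow replicate 2 reached into the SDHBKO range. Of all genes, 19.3% were above the parental samples in every SDHBKO sample and 15.2% in every SDHBKOSDHAlow sample. IER3 rose in SDHBKO against parental cells by 1.36 ± 0.25 on the log2 scale (adjusted p = 0.0082, edgeR), and passed in 13 of 15 alternative settings. In SDHBKOSDHAlow against SDHBKO cells it had -0.69 ± 0.22 (adjusted p = 0.175), which passed with DESeq2 and without SDHBKOSDHAlow replicate 2 (-0.98, adjusted p = 0.0022). PLAUR, the urokinase receptor, had 0.81 ± 0.27 in SDHBKO against parental cells (adjusted p = 0.109), which passed with DESeq2 and without SDHBKOSDHAlow replicate 2 (adjusted p = 0.0357). The median over the 5 genes was 0.71, -0.20 and 0.61, with 5, 2 and 4 of them higher, beside 49.9%, 51.1% and 51.4% of all genes. NFKBIA belongs to this list as well.

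**Figure D4:**
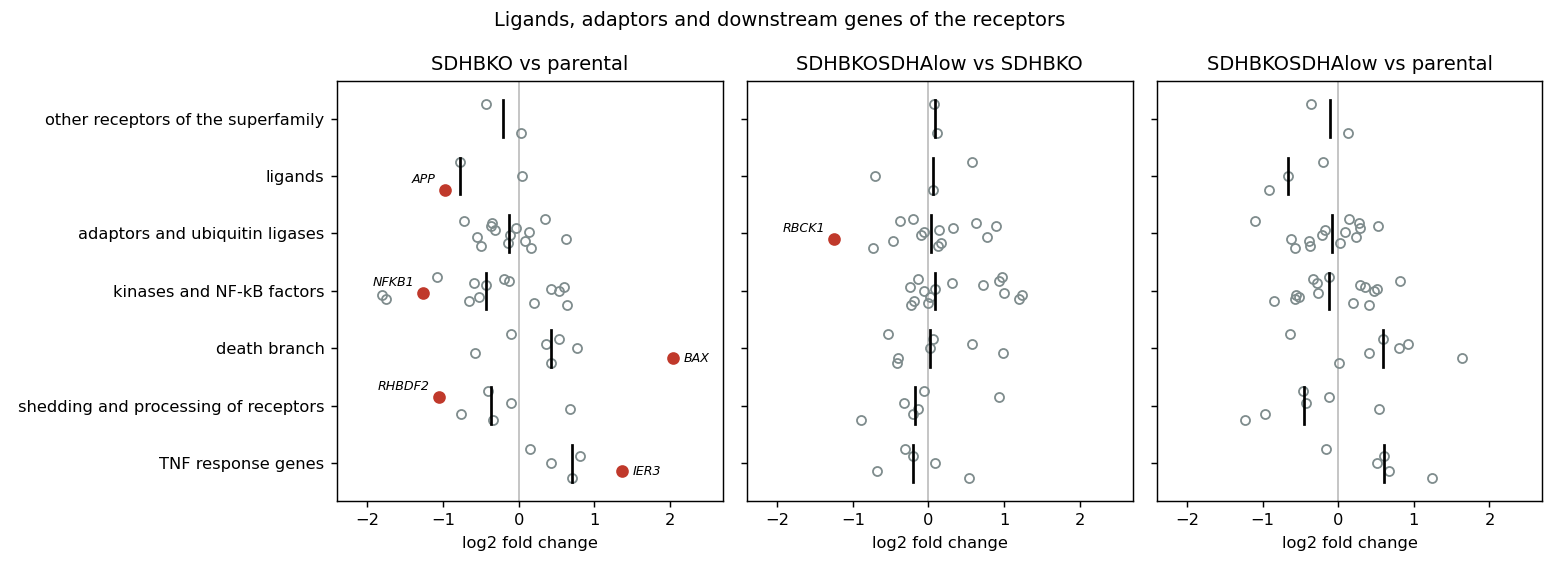
Log2 fold changes (x axis) of the tested genes of 7 lists (y axis) in the 3 comparisons, with filled points for genes at an adjusted p below 0.1 (edgeR) and vertical bars at the median of each list. APP, NFKB1 and RHBDF2 fell and BAX and IER3 rose in SDHBKO against parental cells, RBCK1 fell in SDHBKOSDHAlow against SDHBKO cells, and no gene of these lists passed in SDHBKOSDHAlow against parental cells.

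The 5 genes whose log2 CPM followed that of TNFRSF21 most closely over the 8 samples, which share their libraries, were STAT6 (Pearson's r = 0.987), IGFBP4 (0.984), CST3 (0.968), BUD23 (0.964) and PHLDA2 (0.962). These correlations are a description, since the genes were picked for them. STAT6, the transcription factor of interleukin-4 signalling, had 56.7 and 61.1 CPM in parental, 134, 117 and 127 CPM in SDHBKO and 50.7, 73.1 and 49.0 CPM in SDHBKOSDHAlow cells. IGFBP4, a secreted binding protein of insulin-like growth factors, had log2 fold changes of 0.90, -1.11 and -0.21 in the 3 comparisons, and CST3, the secreted protease inhibitor cystatin C, had 0.86, -1.17 and -0.31. BUD23, a methyltransferase of the small ribosomal subunit RNA, and PHLDA2 changed less, with 0.48 and 0.50 in SDHBKO against parental cells. Among the other members, LTBR had an r of 0.871 with TNFRSF21 and stood at rank 92 of 7549 genes, followed by TNFRSF10A (0.643), TNFRSF1A (0.430), TNFRSF12A (0.099), TNFRSF10B (-0.014) and TNFRSF10D (-0.198). In SDHBKOSDHAlow replicate 2, the sample that stood apart, TNFRSF21, LTBR, STAT6 and IGFBP4 were each higher than in the other replicates of the group, and TNFRSF12A was lower.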

How the data were processed

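Libraries of 3′ ends of mRNA were sequenced from 8 MDA231 samples, grouped by the modification given in the labels. The authors trimmed reads with Trimmomatic, took out ribosomal and mitochondrial reads (Sortmerna), aligned what was left to GRCh38 and counted them per gene with STAR 2.5.2b. They deposited these raw counts, and the 18.8% to 28.6% of reads that lay on no single gene were left out here. The normalized values the authors deposited, a signal equal to each count divided by a size factor, were used only to check the raw files: replicates 1 and 3 of SDHBKO have each other's normalized values, so that only raw counts entered the tests.

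Genes with a mean normalized count above 5 (7550 of 58051) were tested by quasi-likelihood in edgeR 4.0.16 (R 4.3.3), with TMM normalization, all 8 samples in 1 fit (5 residual degrees of freedom, biological coefficient of variation 21.5%) and Benjamini-Hochberg adjustment over all genes within each comparison. An adjusted p below 0.1 was the threshold, as in the study. Standard errors are the log2 fold change divided by the square root of F, and intervals are 95% intervals. CPM used TMM library sizes, and log2 CPM for correlations used a prior count of 2. Positions and 3′ GC content came from the GENCODE annotation of GRCh38 and promoters from RefSeq (GRCh38.p14). Alternatives were DESeq2 1.42.0, its size factors within edgeR, filterByExpr or no filter, a threshold of 0.05, a fit for each pair of groups, a block for the replicate number, and leaving out each sample. A GC content offset (lowess span 0.3) was tried too, chosen after seeing the data. The script was tested on simulated data.

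Members and pathway lists were chosen with earlier results of these data known. The genes named are all members, every list gene past the threshold, up to 3 tested genes of each list with the highest mean CPM, the 5 genes most correlated with TNFRSF21, and SDHA and SDHB. Other genes, such as those at 0, were named after their values were seen. SOD2 of the TNF response list was not matched by identifier and was not used here. BIRC3, TNFAIP3, NFKBIA and TRAF1 are in 2 lists each.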

Additional observations from a re-analysis of the deposited data

How the results depend on the processing

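Of the log2 fold changes of the 6 tested members other than TNFRSF21 under the alternatives, 244 kept their direction and their side of the threshold, 9 passed it, 9 turned their direction, each without 1 sample, and 5 had no adjusted p (DESeq2). With a sample left out, SDHBKO against parental cells ranged from -0.0867 to 0.39 for TNFRSF1A and from -1.14 to 0.54 for TNFRSF10D. SDHBKOSDHAlow against SDHBKO cells ranged from -0.34 to 0.0536 for TNFRSF10B, from -0.43 to 0.13 for TNFRSF10D and from -0.21 to 0.36 for TNFRSF12A. SDHBKOSDHAlow against parental cells ranged from -1.35 to 0.34 for TNFRSF10D and from -0.12 to 0.42 for LTBR. TNFRSF21, given as a description because its values chose the list, ranged from 1.34 to 1.60 in the first comparison and from -1.73 to -1.31 in the second. Members passing the threshold numbered 0 in all 3 comparisons, but for SDHBKO against parental cells 3 in the fit of only the 2 groups (LTBR, TNFRSF10A and TNFRSF12A), 1 with the GC offset (TNFRSF10A, adjusted p = 0.0655) and 0 to 3 with a sample left out, and 0 to 1 in each of the other comparisons with a sample left out. Every such call with a sample left out was made without SDHBKOSDHAlow replicate 2.

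Counts of all genes passing moved more. SDHBKO against parental cells had 418 genes, 777 with only the 2 groups, 171 at an adjusted p of 0.05, and 0 to 846 with a sample left out, with 0 without parental replicate 1 (659 of 7479 genes at an unadjusted p below 0.05) and 846 without SDHBKOSDHAlow replicate 2. SDHBKOSDHAlow against SDHBKO cells had 114 genes, 64 with only the 2 groups, 64 at an adjusted p of 0.05, and 39 to 375 with a sample left out. SDHBKOSDHAlow against parental cells had 69 genes, 152 without a filter on low counts, 7 with only the 2 groups, 13 at an adjusted p of 0.05, and 4 to 173 with a sample left out. The cause was not tested. A fit that leaves 1 parental sample assumes that it varies like the other groups. With the filter of filterByExpr, TNFRSF10D was not tested.

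With the replicate number as a block, the counts of genes were 199, 59 and 12. Samples with the same number shared only the number: over 7 pairs the correlation of their deviations from the group means had a mean of -0.07 and ranged from -0.27 to 0.093. No member passed with the block.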
